A study of Mus musculus with 18 samples.

Results

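The 10 genes described here mark the endothelium, the cells that line blood vessels: Pecam1, Cdh5, Kdr, Flt1, Tek, Tie1, Vwf, Eng, Cldn5 and Emcn. They were chosen by name, and every probe set annotated to 1 of these symbols alone was taken, which gave 14 of the 22690 probe sets on the arrays and 10 of 12393 named genes. The data were log2 signals from microarrays of 18 microdissected mouse lung tumours, made by the authors with GCRMA. Grade 3 tumours are labelled adenocarcinomas and grade 2 tumours adenomas, and the study asked whether the response to p53 restoration depends on tumour grade. Of the 14 probe sets, 12 lay above the median of their array on at least 4 arrays and were tested among 11884.

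All mice were of strain C57/B6-129SvJae and 10 weeks old. Treated mice received tamoxifen in 2 intraperitoneal injections, tumours were taken 7 days after the first, and the labels call the treated tumours p53 restored. The labels give no injection for untreated mice and name no alleles, so neither the promoter that drives any recombinase nor the set of cells in which p53 was restored is described here. The 6 treated grade 3 tumours all came from the female mouse 8688. The 4 treated grade 2 tumours were 8688T8, 8688T9 and 8688T10 from that mouse and 8639T4 from a male. The 4 untreated grade 3 tumours were 8584T3, 8565T1, 8629T10 and 8629T12, and the 4 untreated grade 2 tumours were 8700T1, 8700T3, 8565T3 and 8565T4, all from males. In grade 3 the effects of treatment, animal and sex cannot be told apart. In grade 2 only 8639T4 separates treatment from sex. No mouse carried both treated and untreated tumours, so treatment was compared only between mice in both grades. The mouse entered every fit as a random block, with an estimated correlation of 0.255 between tumours of a mouse, and p-values over tumours remain too small because 18 tumours came from 6 mice.

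Endothelial cells grow and survive through a small set of surface receptors. Kdr and Flt1 encode the receptors of the VEGF growth factors, Tek encodes the receptor of the angiopoietins, and Tie1 encodes its partner receptor. Eng encodes endoglin, a co-receptor for ligands of the TGF-beta family. Pecam1, Cdh5 and Cldn5 encode proteins of the junctions that hold the lining together, Emcn encodes a surface sialomucin found on capillaries and veins, and Vwf encodes the clotting factor that endothelial cells store and secrete. In lung, dense capillary networks lie next to the thin alveolar type 1 cells, so vessels are part of any piece of lung tissue.

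The promoters of the 4 receptor tyrosine kinase genes are shown as background, and no link between promoter and signal was tested. RefSeq promoters of build GRCm38.p6, from 250 bases before to 50 bases after the start, were found for 7 of the 10 genes. Capitals mark GGAA, the core of the motif of ETS factors, on either strand, where the other strand reads TTCC. The Tek window lies on the plus strand at chr4:94739039-94739338, the Tie1 window on the minus strand at chr4:118489800-118490099, the Kdr window on the minus strand at chr5:75978406-75978705 and the Flt1 window on the minus strand at chr5:147725962-147726261.
Tek: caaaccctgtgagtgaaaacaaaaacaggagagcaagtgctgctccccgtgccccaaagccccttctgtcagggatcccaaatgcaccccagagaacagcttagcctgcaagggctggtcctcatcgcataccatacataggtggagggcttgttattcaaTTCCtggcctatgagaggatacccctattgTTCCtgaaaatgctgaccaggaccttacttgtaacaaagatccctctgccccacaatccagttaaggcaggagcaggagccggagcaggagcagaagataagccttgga
Tie1: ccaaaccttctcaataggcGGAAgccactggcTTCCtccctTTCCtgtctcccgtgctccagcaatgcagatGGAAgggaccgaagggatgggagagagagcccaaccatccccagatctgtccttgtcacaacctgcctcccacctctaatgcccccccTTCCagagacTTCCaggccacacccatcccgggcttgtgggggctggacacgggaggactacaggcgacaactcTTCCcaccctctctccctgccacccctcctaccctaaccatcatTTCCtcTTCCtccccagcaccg
Kdr: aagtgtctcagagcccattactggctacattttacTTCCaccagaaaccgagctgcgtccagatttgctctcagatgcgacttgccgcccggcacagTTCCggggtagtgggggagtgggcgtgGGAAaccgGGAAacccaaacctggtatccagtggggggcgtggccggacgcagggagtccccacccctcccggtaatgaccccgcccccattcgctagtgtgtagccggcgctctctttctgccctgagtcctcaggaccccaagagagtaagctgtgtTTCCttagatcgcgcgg
Flt1: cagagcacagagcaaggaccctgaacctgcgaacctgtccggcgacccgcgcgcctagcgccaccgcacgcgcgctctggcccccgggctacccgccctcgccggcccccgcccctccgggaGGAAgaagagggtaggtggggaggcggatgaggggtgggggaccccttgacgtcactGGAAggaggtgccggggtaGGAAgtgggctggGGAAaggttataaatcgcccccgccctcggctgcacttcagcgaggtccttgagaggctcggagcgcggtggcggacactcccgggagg
The Tie1 promoter held 9 matches, a number reached by 1.59% of 32851 promoters of the same length. Kdr held 5 matches, reached by 28.6% of promoters, Flt1 held 4, reached by 46.3%, and Tek held 2, reached by 84.6%. Among the other matched genes Emcn held 6, Eng 4 and Cldn5 0. At least 1 match stood in 96.0% of all promoters, with a median of 3, so a match is a description of the letters and not a site.

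Every tested endothelial gene was clearly measured. Of the 12 probe sets, 10 exceeded the median of all 18 arrays, and those of Cdh5 and Tie1 exceeded it on 17. The untested probe sets were a second one of Cdh5 (1422047_at), at 2.39 to 3.47, and another of Flt1 (1454037_a_at), at 4.45 to 5.97, both below the median on all 18 arrays. Signals of different probe sets are not compared here, since a probe set's brightness depends on its sequence. The array medians ran from 6.05 to 6.18. The 3' minus 5' signal of the Gapdh and beta-actin controls, a sign of RNA quality, was 2.62 in 8688T3 and 1.85 in 8639T4 against 0.62 to 1.05 in the other 16 tumours, so results that rest on these 2 tumours are given without them where they differ. The mean of 10 epithelial genes, Epcam and Sftpc among them, ran from 11.1 to 11.7, while Nkx2-1, a transcription factor of lung epithelium, never exceeded the array median.

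**Figure D1:**
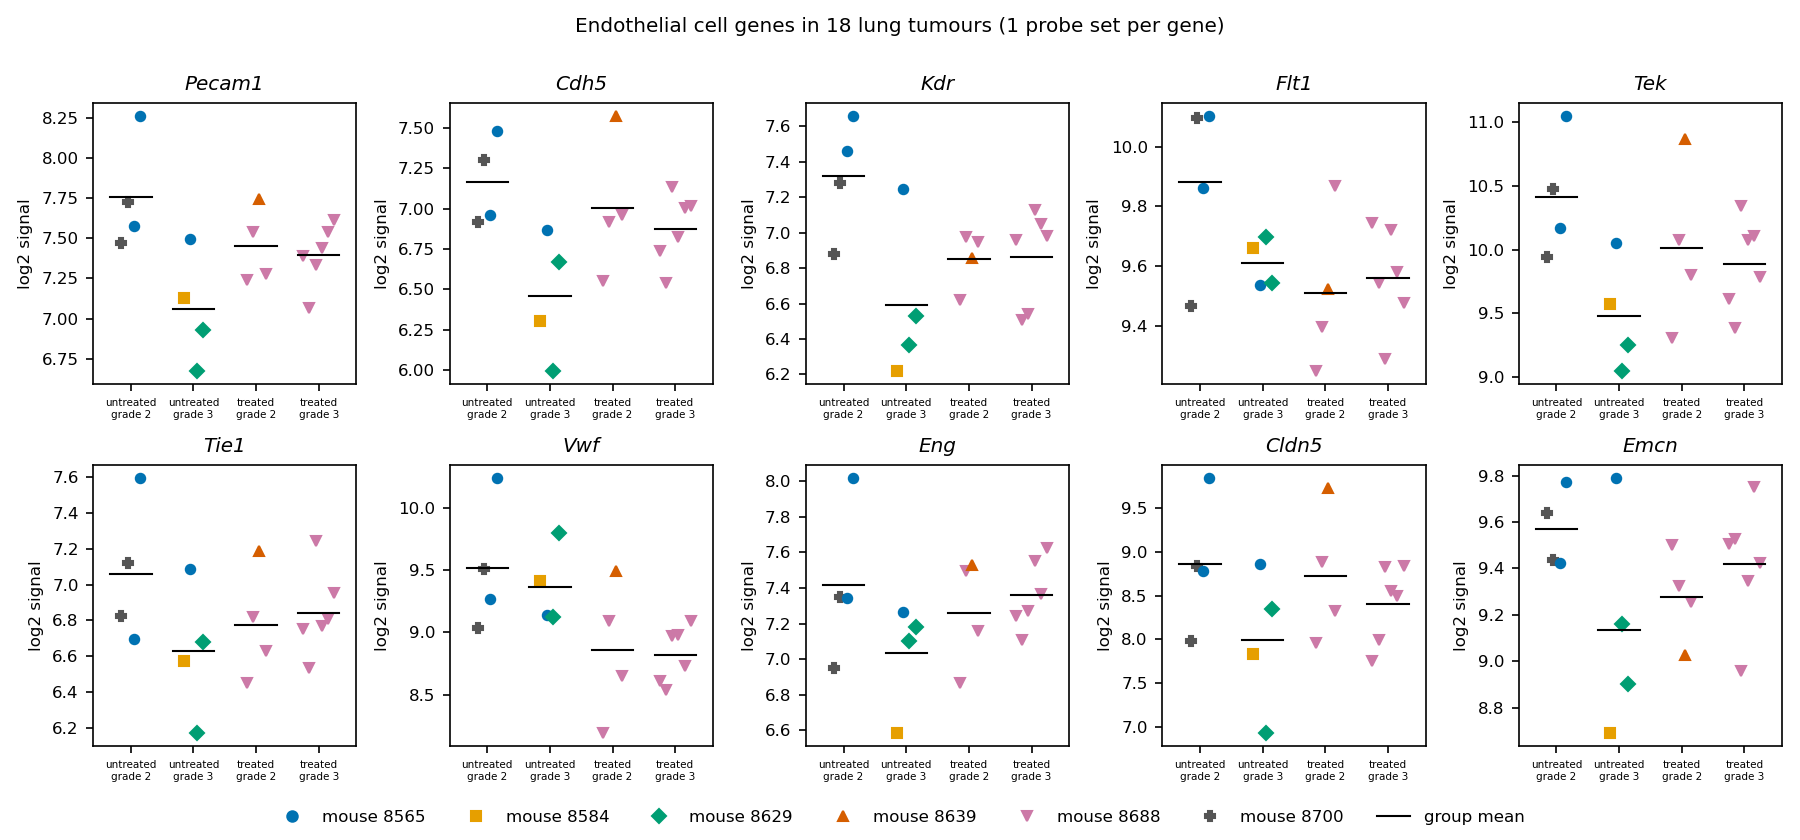
Log2 signal of each of the 10 endothelial genes (vertical axes, 1 probe set a gene) in 18 tumours by group, with marker and colour for the mouse and a line for the group mean. The untreated grade 2 group has the highest mean in every panel, and the untreated grade 3 group the lowest except for Flt1 and Vwf.

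The untreated tumours of the 2 grades showed the widest spread between groups. The group mean was highest in untreated grade 2 tumours for 10 of the 12 probe sets and lowest in untreated grade 3 tumours for 10 of the 12, with the treated groups between. The mean log2 signal over the 10 genes was 8.50 ± 0.38 (SD, n = 4) in untreated grade 2, 8.17 ± 0.32 (n = 4) in treated grade 2, 8.14 ± 0.16 (n = 6) in treated grade 3 and 7.94 ± 0.30 (n = 4) in untreated grade 3 tumours. Neighbours in that order differed by less than the larger of their 2 SDs. In the reported fit, no difference passed an adjusted p of 0.05 for any of these genes. Other fits, among them one with array weights in which some passed, are given at the end. In whole tumours, fewer endothelial cells and less RNA per cell cannot be told apart.

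Among the junction genes, Pecam1 (1421287_a_at), an adhesion molecule of endothelium and platelets, stood at 7.47, 7.72, 7.58 and 8.26 in the untreated grade 2 tumours 8700T1, 8700T3, 8565T3 and 8565T4. In the untreated grade 3 tumours 8584T3, 8565T1, 8629T10 and 8629T12 it stood at 7.13, 7.49, 6.67 and 6.93. Only 8565T1 reached the grade 2 range, just above 8700T1. Grade 3 tumours were lower by a fitted log2 difference of -0.64 (SE 0.20, 95% interval -1.06 to -0.22), with an unadjusted p of 0.00484 and an adjusted p of 0.242 by limma.

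Cdh5 (1433956_at), which encodes VE-cadherin of the adherens junction, measured 6.91, 7.30, 6.96 and 7.48 in untreated grade 2 tumours in the same order. It measured 6.30, 6.87, 6.00 and 6.67 in untreated grade 3 tumours. These groups did not overlap, although 8565T1 came within a small margin of 8700T1. Cdh5 was the 1 member without overlap here, where 2.73% of all probe sets tested were lower without overlap. Its fitted difference was -0.64 (SE 0.23, limma adjusted p 0.313).

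Cldn5 (1417839_at), the claudin of endothelial tight junctions, had the widest range of the tested members, 2.93 on the log2 scale. It stood at 7.98, 8.84, 8.79 and 9.85 in untreated grade 2 and at 7.84, 8.86, 6.93 and 8.35 in untreated grade 3 tumours. The 2 groups overlapped between 7.98 and 8.86, with 8565T4 highest and 8629T10 lowest. The fitted difference was -0.78, with an SE of 0.45 (adjusted p 0.499), the largest SE of the 12.

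Of the receptors, Kdr (1449379_at), the main signalling receptor of VEGF-A, measured 6.88, 7.28, 7.46 and 7.66 in untreated grade 2 tumours. In untreated grade 3 tumours it measured 6.22, 7.24, 6.37 and 6.53, so that 8565T1 lay among the grade 2 tumours and the other 3 below all of them. The fitted difference was -0.66 (SE 0.22, unadjusted p 0.00743, adjusted p 0.272).

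Tek (1418788_at) measured 9.95, 10.47, 10.17 and 11.05 in untreated grade 2 and 9.57, 10.05, 9.05 and 9.25 in untreated grade 3 tumours. Again 8565T1 alone reached the grade 2 range. The fitted difference of -0.84 (SE 0.32) was the furthest from 0 of the 12, with an adjusted p of 0.320.

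Tie1 (1416238_at) ran from 6.70 to 7.60 in untreated grade 2 and from 6.17 to 7.09 in untreated grade 3 tumours, and differed by -0.36 (SE 0.24, adjusted p 0.549). Flt1, which encodes a VEGF receptor that also exists as a soluble form binding the ligand, had 2 tested probe sets. The first (1419300_at) differed by -0.25 and the second (1451756_at) by -0.30 between untreated grades, and their ranges of 0.86 and 0.85 over the 18 tumours were the narrowest among the members. The 2 probe sets of Eng differed by -0.40 (1417271_a_at) and -0.45 (1432176_a_at), with overlapping groups.

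Emcn (1425582_a_at) measured 9.64, 9.44, 9.42 and 9.77 in untreated grade 2 and 8.69, 9.79, 9.16 and 8.90 in untreated grade 3 tumours. The grade 3 tumour 8565T1 was the highest of all 18, while the other 3 lay below every untreated grade 2 tumour. The fitted difference was -0.33 (SE 0.21, adjusted p 0.538). Vwf (1435386_at) differed least, by -0.23 (SE 0.29, adjusted p 0.774).

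All 12 fitted differences between untreated grades were thus below 0, with a median of -0.42, where 50.7% of all probe sets tested were below 0 and their median was -0.0048. None of the 12 passed the adjusted threshold, which 0.143% of probe sets passed. At an unadjusted p under 0.05, 4 of the 12 (Pecam1, Kdr, Cdh5 and Tek) were lower in grade 3, where 6.46% of all probe sets were. The members are not independent of each other, since they mark 1 cell type. Without tumour 8565T4 the median moved to -0.24, and without 8565T1 to -0.62. Mouse 8565 carried both grades. Its grade 3 tumour 8565T1 lay below the mean of its 2 grade 2 tumours for 11 of the 12. The median was -0.42, with Emcn the exception at 0.19. That mean includes 8565T4. Beside the other grade 2 tumour, 8565T3, the mean over the 10 genes was nearly equal, at 8.33 in 8565T1 and 8.35 in 8565T3. Tie1 (7.09 against 6.70), Cldn5 (8.86 against 8.79) and Emcn (9.79 against 9.42) were higher in 8565T1 than in 8565T3, and the other probe sets were lower. No share of all probe sets is given for this comparison within the mouse.

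**Figure D2:**
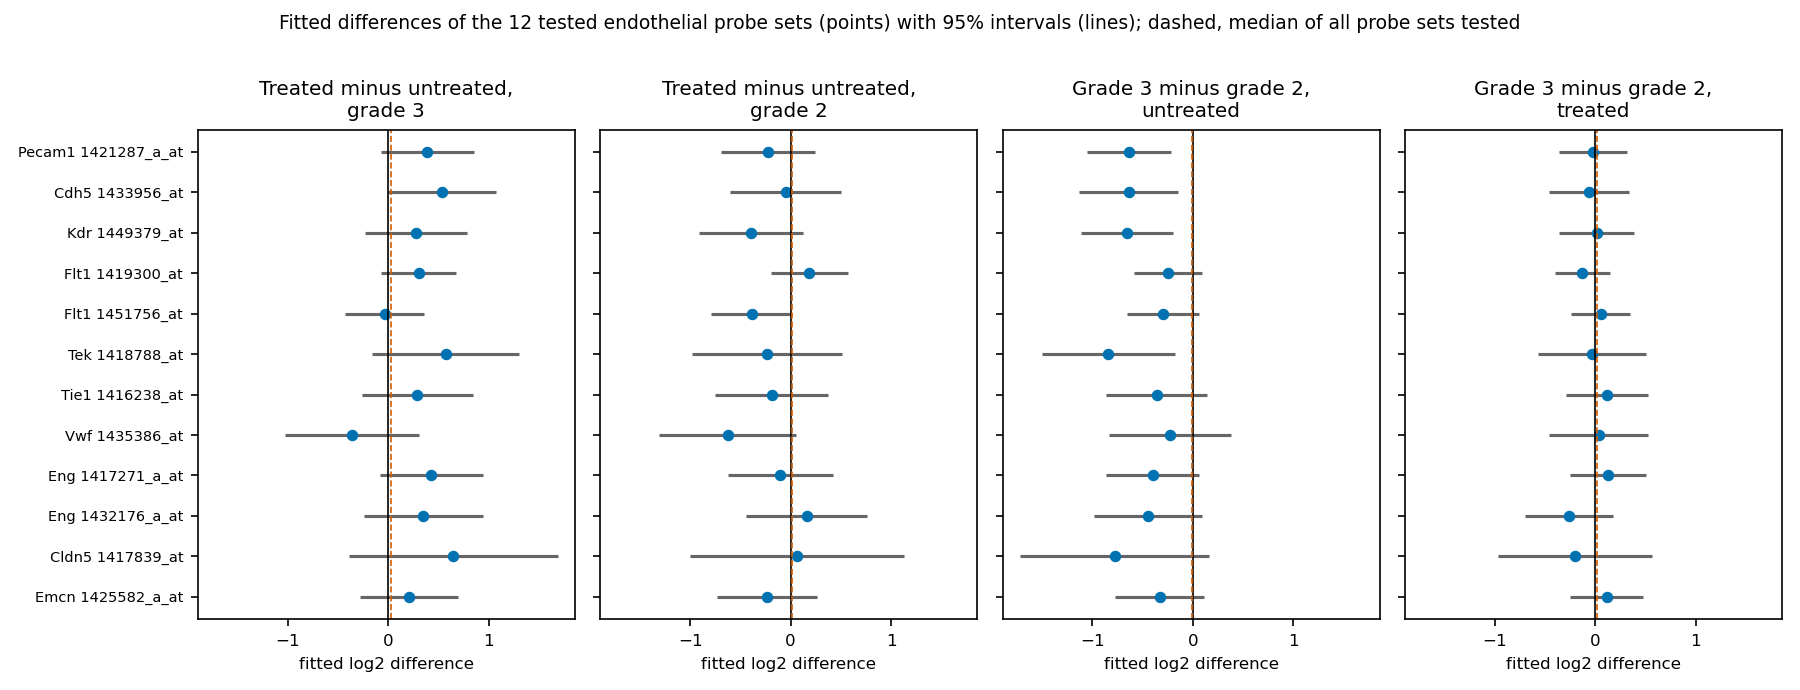
Fitted log2 differences (points) with 95% intervals (lines) of the 12 tested endothelial probe sets in 4 comparisons, with a dashed line at the median of all probe sets tested. All 12 points lie below 0 between untreated grades, and the treated grades differ by -0.26 to 0.13.

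Between the grades of treated tumours the same genes lay close together. The fitted differences ran from -0.26 for Eng (1432176_a_at) to 0.13 for Eng (1417271_a_at), with 6 above 0, as were 55% of all probe sets, 6 below 0 and a median of -0.0047, and every adjusted p was 0.999. No member was called by limma, and 0% of all probe sets were; none of the 12 had an unadjusted p under 0.05, where 1.62% of all probe sets did. Tek had a lowest, median and highest value of 9.38, 9.93 and 10.34 in the 6 treated grade 3 tumours, and values of 9.31, 10.07, 10.86 and 9.80 in the treated grade 2 tumours 8688T8, 8688T9, 8639T4 and 8688T10. The grade 3 values lay wholly inside the grade 2 range, whose upper end was 8639T4. Without that tumour the grade 2 values ended at 10.07, and 8688T6 at 10.10 and 8688T3 at 10.34 lay above. The interval of the difference with all tumours was -0.57 to 0.51. For Pecam1 the interval was -0.36 to 0.32. Inside mouse 8688, which carried 6 grade 3 and 3 of the grade 2 tumours, 10 of 12 differences were above 0 with a median of 0.057.

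Treated against untreated tumours were then compared within each grade, sharing their samples with the comparisons above. In grade 3, 10 of 12 differences were above 0, with a median of 0.33 against 0.033 for all probe sets tested, of which 55.3% were above 0. None of the 12 passed, where 0.463% of probe sets did, and 0 of the 12 had an unadjusted p under 0.05, where 8.21% did. Cdh5 had a lowest, median and highest value of 6.54, 6.91 and 7.13 in treated grade 3 tumours, overlapping the untreated range of 6.00 to 6.87, and differed by 0.53 (SE 0.26, adjusted p 0.610). Cldn5 ran from 7.75 to 8.84 with a median of 8.52 in treated grade 3 tumours, inside its untreated range, and differed by 0.65 (SE 0.50, adjusted p 0.752). Tek differed by 0.57 (SE 0.35), Eng by 0.43 and 0.35, and Pecam1 by 0.39 (SE 0.22). With sex as a covariate, in which 8639T4 is the 1 treated male, the median over the 12 was 0.72. Every value with sex as a covariate rests on 8639T4, whose 3' minus 5' control signal was high at 1.85. None can be given without that tumour.

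In grade 2, 9 of 12 differences were below 0, with a median of -0.21 against 0.011 for all probe sets tested, of which 48.1% were below 0. None of the 12 passed, where 0.0841% of probe sets did, and none had an unadjusted p under 0.05, where 6.96% did. Kdr, at 6.62, 6.98, 6.86 and 6.94 in treated grade 2 tumours in the order above, lay below every untreated grade 2 tumour except 8700T1. It differed by -0.39 (SE 0.25, adjusted p 0.815). The second Flt1 probe set (1451756_at) differed by -0.38 (SE 0.19, adjusted p 0.743), while the first differed by 0.19 (SE 0.18), so the probe sets of this gene disagreed in direction. Those of Eng disagreed as well, at -0.10 and 0.16. Without 8565T4 the median over the 12 was 0.049, so its sign rested on that tumour, and with sex as a covariate it was 0.15. Without 8688T3 and 8639T4 the median was -0.36, and Eng (1432176_a_at) differed by -0.16 and Cldn5 by -0.38, against 0.065 for Cldn5 with all tumours.

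The difference between the 2 treatment differences was tested as an interaction. All 12 were above 0, with a median of 0.50 against 0.021 for all probe sets tested, of which 52.8% were above 0. None passed, and 0% of all probe sets did; the lowest adjusted p was 0.552. Pecam1, at 0.62 (SE 0.26, p 0.0270), and Kdr, at 0.67 (SE 0.28, p 0.0285), were the 2 members with an unadjusted p under 0.05, where 8.86% of all probe sets had one. Tek had the highest value, 0.81 (SE 0.41). Without 8565T4 the median over the 12 was 0.29.

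Vwf was 1 of the 2 probe sets with a difference below 0 under treatment in grade 3. In treated grade 3 tumours its lowest, median and highest values were 8.54, 8.85 and 9.09, and in the untreated grade 3 tumours 8584T3, 8565T1, 8629T10 and 8629T12 it stood at 9.42, 9.14, 9.13 and 9.80. These groups did not overlap, and it was the 1 member of which that held, with treated tumours lower, as were 1.96% of all probe sets. In grade 2 it stood at 8.19, 9.09, 9.50 and 8.65 in treated and at 9.04, 9.51, 9.27 and 10.25 in untreated tumours, which overlapped. The fitted difference was -0.36 (SE 0.32, adjusted p 0.778) in grade 3 and -0.63 (SE 0.32, adjusted p 0.746) in grade 2. With sex as a covariate the grade 3 difference was 0.34.

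Each gene was next centred on its own mean over the 18 tumours, and the mean of the other 11 probe sets was taken from Vwf. The remainder averaged 0.56 ± 0.45 (SD, n = 4) in untreated grade 3, 0.15 ± 0.17 (n = 4) in untreated grade 2, -0.30 ± 0.27 (n = 4) in treated grade 2 and -0.27 ± 0.14 (n = 6) in treated grade 3 tumours. Its zero is set by the centring, so its signs have no meaning of their own. This measure was chosen after the values were seen and has no test. Megakaryocytes and platelets also make Vwf. Of 8 platelet genes on the arrays, 7 (Itga2b, Gp9, Gp1bb, Gp5, Ppbp, Itgb3 and Treml1) were never above the array median. The other, Pf4, which encodes platelet factor 4, ran from 9.86 to 10.12 in untreated grade 3, from 9.15 to 10.12 in untreated grade 2, from 8.44 to 9.58 in treated grade 2 and from 8.85 to 10.39 in treated grade 3 tumours. The summed level of the 8 genes, as the log2 of the sum, ran from 9.97 to 10.21, 9.32 to 10.22, 8.77 to 9.74 and 9.05 to 10.47 in the same groups. That sum is mostly Pf4, so it is not a separate measure of platelets. Hbb-b2, a beta globin gene of red cells with near-identical copies, was lower in treated than in untreated tumours. The difference was 3.09 (SE 0.37, limma adjusted p 0.000350) in grade 3 and 3.00 (SE 0.38, adjusted p 0.000596) in grade 2. The other red cell gene tested, the alpha globin gene Hba-a2, differed by -0.16 (SE 0.20, adjusted p 0.839) and -0.38 (SE 0.20, adjusted p 0.755). In each grade 1 of the 2 was called, where 0.463% and 0.0841% of all probe sets were. The red cell genes Hba-a1, Alas2, Slc4a1 and Epb42 were never above the array median. The part of blood cells in the Vwf values was not tested.

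**Figure D3:**
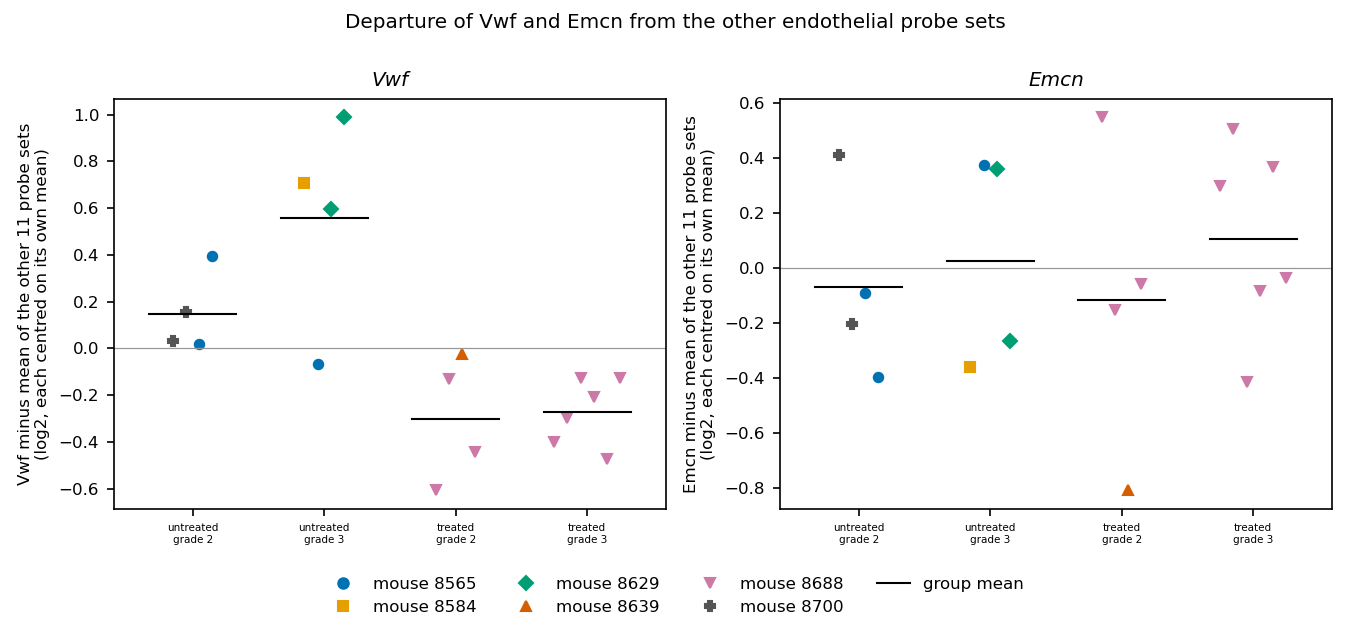
Vwf (left) and Emcn (right) minus the mean of the other 11 endothelial probe sets, in log2 units after each was centred on its own mean, by group, with 1 marker a tumour and a line for the group mean. For Vwf the untreated grade 3 tumours have the highest mean, 0.56, and the widest spread, and 8639T4 is the lowest for Emcn at -0.81.

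The members mostly followed each other from tumour to tumour. Over the 18 tumours, with the 4 group means removed, Pearson correlations of the 66 pairs had a median of 0.58 and ran from -0.34 to 0.92, with 60 pairs above 0. With group means kept, the median was 0.54 for Pearson and 0.49 for Spearman correlations. The highest were Cdh5 with Tie1 (0.92), Cdh5 with Cldn5 (0.91), Vwf with the second Eng probe set (0.91), Tie1 with Cldn5 (0.89) and Tek with Tie1 (0.89). These are descriptions over tumours that share mice, not independent points, and the RNA of each tumour was amplified. For each member, the median correlation with all 7300 genes tested lay between -0.096 and 0.028. The 2 probe sets of Flt1 correlated at 0.72 and those of Eng at 0.75.

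**Figure D4:**
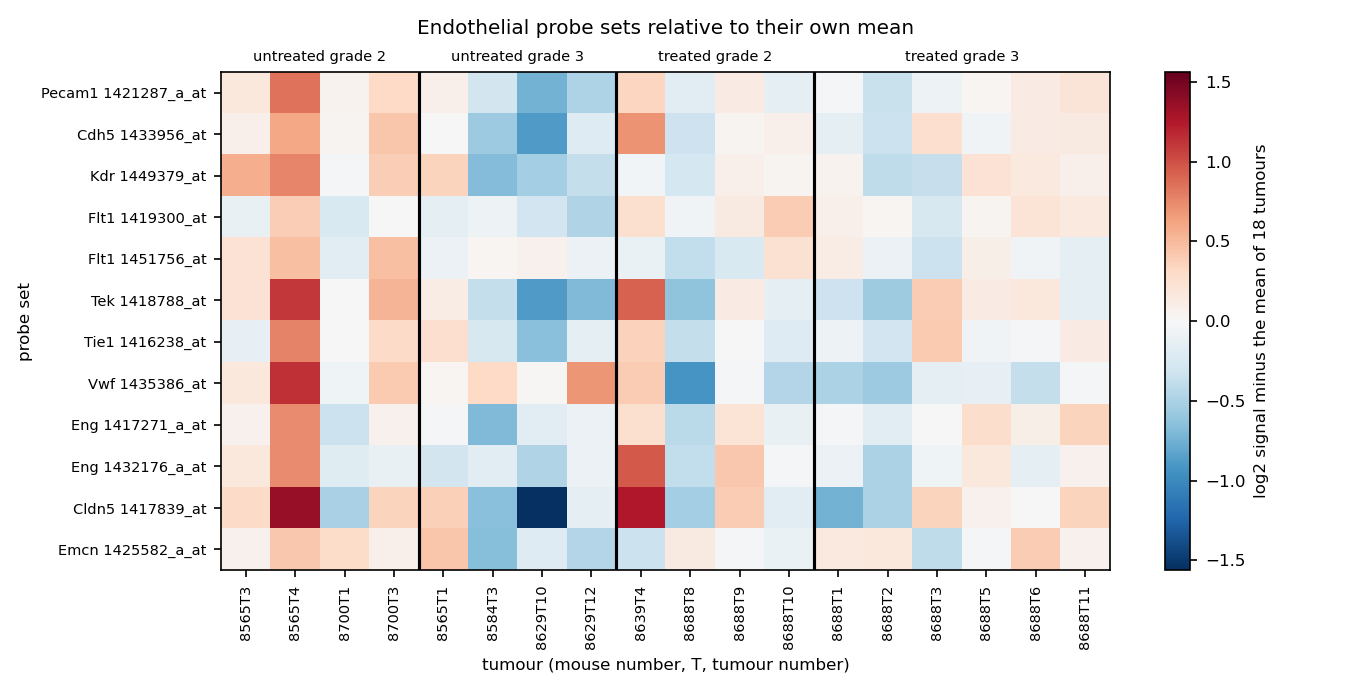
Log2 signal of the 12 tested endothelial probe sets (rows) in 18 tumours (columns, by group), each minus its own mean over the tumours. The 8565T4 column is high in every row, and 8629T10 is low in most rows.

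Single tumours stood out for most of the genes at once. Tumour 8565T4 (untreated grade 2) was the highest of the 18 for 8 of the 12 probe sets and among the highest 3 for all 12. Tumour 8639T4 (treated grade 2) was highest for 2 and among the highest 3 for 7. At the other end, 8629T10 (untreated grade 3) was among the lowest 2 for 8 of the 12. The mean over the 10 genes ran from 7.63 in 8629T10 to 9.0 in 8565T4. Tumours of 1 mouse and grade could lie far apart: 8565T3 stood at 8.35 beside 8565T4, and 8688T8 at 7.79 beside 8688T9 at 8.25.

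Emcn was the member that followed the others least. Its median correlation with the other 11 was -0.0018 with group means removed, against 0.78 for Cldn5, 0.72 for Tek and 0.71 for Pecam1, Cdh5 and Vwf. Both probe sets of Flt1 were also below the rest, at 0.41 and 0.20. After centring, Emcn minus the mean of the others was lowest in 8639T4 (-0.81), 8688T3 (-0.42), 8565T4 (-0.40) and 8584T3 (-0.36). Tumours 8639T4 and 8688T3 had the highest 3' minus 5' control signal of the 18, at 1.85 and 2.62, while 8565T4 stood at 0.93 and 8584T3 had the lowest, 0.62. Without 8639T4 and 8688T3 the median correlation of Emcn was 0.30 (n = 16), close to 0.31 for the second Flt1 probe set (1451756_at). Within mouse 8688 (n = 9) it was -0.35 for Emcn and 0.030 for that Flt1 probe set. The part of RNA quality in the Emcn values was not tested.

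Other endothelial genes showed the same ranking of tumours. A list of 41 had 34 genes on the arrays and 28 tested. Its mean correlated with the mean of the 10 members at 0.95 (Spearman 0.97, n = 18), at 0.95 without the extreme tumours 8565T4 and 8629T10, and at 0.91 within mouse 8688 (n = 9). Never above the array median were Nos3, Erg, Lyl1, Cyyr1 and Epas1, so the endothelial nitric oxide synthase and the ETS factor Erg, both well-known endothelial markers, were not clearly measured here. Between untreated grades 27 of the 28 were lower in grade 3, where 50.7% of all probe sets tested were, with a median of -0.42. None was called, where 0.143% of all probe sets were. At an unadjusted p under 0.05, 9 were lower, where 6.46% of all probe sets were, and 1 was higher. Thbd, which encodes thrombomodulin of the anticoagulant surface, differed by -0.79 (SE 0.23, adjusted p 0.209), and Icam2, an adhesion molecule, by -0.92 (SE 0.29, adjusted p 0.240).

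Under treatment in grade 3, 23 of these 28 were above 0, where 55.3% of all probe sets tested were, with a median of 0.24. None was called, where 0.463% of all probe sets were. An unadjusted p under 0.05 was found for 3, and for 8.21% of all probe sets. Acvrl1, which encodes the receptor ALK1 that works with endoglin, differed by 1.09 (SE 0.36, adjusted p 0.261). Procr, the endothelial protein C receptor, went the other way at -1.60 (SE 0.57, adjusted p 0.348). In grade 2, 19 of 28 were below 0, where 48.1% of all probe sets tested were, with a median of -0.094. None was called, where 0.0841% of all probe sets were, and 6.96% of all probe sets had an unadjusted p under 0.05. The 1 gene with an unadjusted p under 0.05, Klf2, a flow-responsive transcription factor, differed by -0.86 (SE 0.36, adjusted p 0.663).

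Genes of lung capillaries were lower as well. All 8 tested stood lower in untreated grade 3 than in untreated grade 2 tumours, with a median of -0.39. None was called, and 3 had an unadjusted p under 0.05. Of all probe sets tested, 50.7% were lower, 0.143% were called and 6.46% were lower at an unadjusted p under 0.05. The same shares apply to the artery, vein and lymphatic genes below. Bmp6, a ligand of the BMP family, differed by -1.81 (SE 0.44, adjusted p 0.141) and the transcription factor Tbx3 by -1.29 (SE 0.42, adjusted p 0.268). Of 9 tested artery and vein genes, 7 were lower and none was called, with 3 lower and 1 higher at an unadjusted p under 0.05. Hey1 differed by -0.74 (SE 0.26, adjusted p 0.296) and Hey2 by -1.02 (SE 0.36, adjusted p 0.297), both Notch target genes. The higher one was Selp, which encodes P-selectin of endothelium and platelets, at 1.45 (SE 0.63, adjusted p 0.385). It stood at 7.78, 6.63, 7.09 and 8.77 in untreated grade 3 and at 5.79, 5.70, 6.08 and 6.102 in untreated grade 2 tumours. Of 3 tested lymphatic genes all were lower and none was called, while Prox1, the defining transcription factor of lymphatic endothelium, was never above the array median.

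Ligands and other receptors of vessel growth formed a further list. Of 30 listed, 22 were tested and 17 were lower in untreated grade 3 tumours, with a median of -0.31. None was called, and 7 lower and 1 higher had an unadjusted p under 0.05. Of all probe sets tested, 50.7% were lower, 0.143% were called and 6.46% were lower at an unadjusted p under 0.05. Sema3e, a guidance ligand, differed by -1.05 (SE 0.25, adjusted p 0.141) and Adamts1, a secreted protease, by -1.10 (SE 0.28, adjusted p 0.149). The ligand of Kdr and Flt1, Vegfa, differed by -0.072 between untreated grades and by 0.058 under treatment in grade 3. Under treatment in grade 2 it differed by 0.44 (SE 0.21, adjusted p 0.735), and between treated grades by -0.45 (SE 0.15, adjusted p 0.999). Angptl4, a secreted angiopoietin-like protein, differed by -1.33 between treated and untreated grade 3 tumours (SE 0.30, adjusted p 0.0614). The angiopoietins Angpt1 and Angpt2, ligands of Tek, were never above the array median.

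The mean of alveolar type 1 genes followed the endothelial level, and its single genes did so less closely. The median correlation of the 11 genes was 0.43, or 0.32 with group means removed. The mean of 11 alveolar type 1 genes correlated with the member mean at 0.78 (Spearman 0.73, n = 18) and within mouse 8688 at 0.72 (n = 9), and at 0.70 without 8565T4 and 8629T10. That mean includes Igfbp2, which ran from 3.42 in 8584T3 to 8.13 in 8565T4, while the mean itself ran only from 10.17 to 11.13. The correlation without Igfbp2 was not computed. All 11 were lower in untreated grade 3 than in untreated grade 2 tumours, where 50.7% of all probe sets tested were. None was called, where 0.143% of all probe sets were. At an unadjusted p under 0.05 by limma, 3 were lower, where 6.46% of all probe sets were. The group ranges of their mean log2 signal did not overlap, at 10.17 to 10.64 against 10.70 to 11.13. The summed levels of the 11 genes, as the log2 of the sum, ran from 14.51 to 14.75 and from 14.68 to 15.08 in those groups, and from 14.69 to 15.09 in treated grade 2 and 14.71 to 15.03 in treated grade 3 tumours. All 11 were above 0 under treatment in grade 3, where 55.3% of all probe sets tested were. There Rtkn2 was higher by 1.95 (SE 0.25, limma adjusted p 0.000603) and was the 1 called, where 0.463% of all probe sets were. Of 11 tested fibroblast genes, 9 were lower in untreated grade 3 tumours, 3 of them at an unadjusted p under 0.05 by limma, and none was called. Of all probe sets tested, 50.7% were lower, 6.46% were lower at that unadjusted p and 0.143% were called. Lum was never above the array median. The summed level of the fibroblast genes ran from 13.79 to 14.43 in untreated grade 3, 14.29 to 14.83 in untreated grade 2, 13.95 to 14.26 in treated grade 2 and 14.004 to 14.42 in treated grade 3 tumours. The fibroblast mean correlated with the member mean at 0.81 and at 0.64 without 8565T4 and 8629T10, the pericyte and smooth muscle mean at 0.66 and 0.48, the macrophage and leukocyte mean at 0.42 and 0.24, the tumour epithelium mean at 0.34 and 0.35 and the mitosis mean at 0.025 and -0.0031. Pdpn and Vegfa stand in the alveolar type 1 list and also in the lymphatic and the vessel growth list. The part of normal lung tissue and stroma in the endothelial values was not tested.

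**Figure D5:**
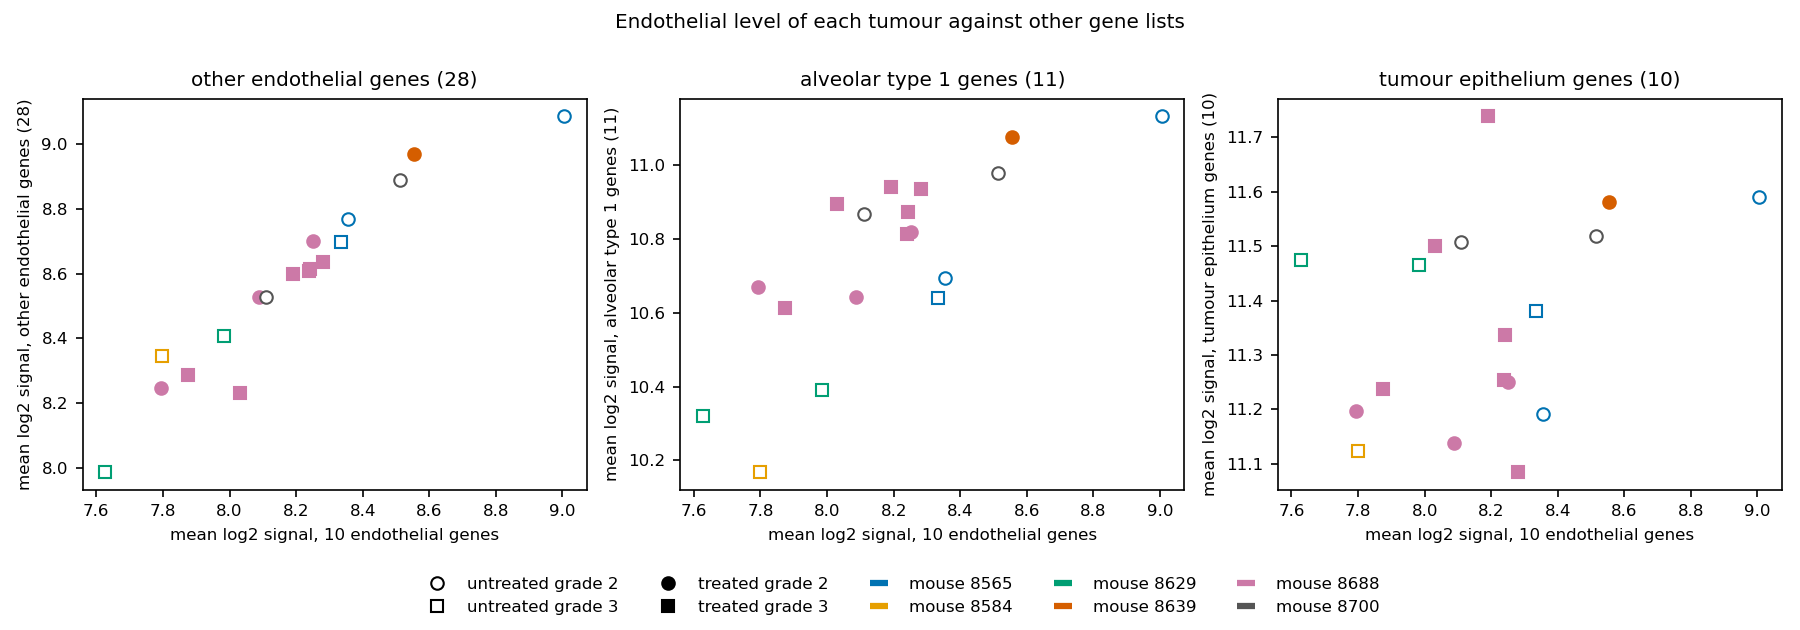
Mean log2 signal of the 10 endothelial genes (horizontal axes) against the mean of 28 other endothelial, 11 alveolar type 1 and 10 tumour epithelium genes (vertical axes), with 1 marker a tumour, shape and fill for the group and colour for the mouse. The points follow a line for the other endothelial genes (0.95) and scatter for the tumour epithelium genes (0.34).

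Among 7290 genes outside the members, ranked by correlation with the member mean over the 18 tumours with group means removed, the 8 highest were Ncald (0.94), Zeb1 (0.94), Adgre5 (0.92), Thbd (0.92), Akap12 (0.92), Ccn5 (0.92), Tcf21 (0.91) and Serping1 (0.91). With group means kept, Ptprb, the endothelial receptor tyrosine phosphatase VE-PTP, entered at 0.94 and Tcf21 left at 0.82. Thbd and Ptprb stood in the list of other endothelial genes and Tcf21 in the fibroblast list. Without 8565T4 and 8629T10 the correlations of these 9 genes ran from 0.75 for Tcf21 to 0.92 for Ccn5. Over all 7290 genes the middle of the distribution was -0.029, with quartiles at -0.26 and 0.22.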

How the data were processed

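From each tumour, 100 ng of total RNA went through amplification and biotin labelling before hybridisation to a 1-colour array (labels' protocols). Per the submitters' processing notes, the log2 signals that the authors deposited came from GCRMA 2.20.0 run in R 2.11.0; that method equalises the distributions of the arrays, so tumours differing in total RNA look alike. No further normalisation was applied. Control probe sets (64) were left out, and the 11884 probe sets that exceeded the median of at least 4 arrays were fitted with limma 3.58.1 in R 4.3.3, as 4 group means with the mouse as a random block and a trended spread (14 residual and 4.23 prior degrees of freedom). P-values were two-sided and adjusted by Benjamini-Hochberg over all 11884, with a threshold of 0.05. A gene's means over lists used its probe set with the highest mean. The number of arrays limits the precision.

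The members, gene lists and alternatives were chosen with earlier results of these data known. All members were named, with up to 3 passing genes of each other list and comparison or, where none passed, up to 2 of smallest p. Vegfa between untreated grades and under treatment, and genes named as never above the array median, were named outside that rule. Alternatives varied the animal term, sex, groups fitted, scaling, filter, probe sets, spread model, array weights and tumours. The fit was tested on simulated data.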

Additional observations from a re-analysis of the deposited data

Results flagged for a closer look

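In the untested Cdh5 probe set 1422047_at, tumour 8688T3 stood at 2.39, apart from the other 5 treated grade 3 tumours at 3.02 to 3.32. The gap took 0.677 of the group's range. It was the 1 such value among 56 combinations of group and probe set checked, where chance gives about 1 in 20, and the probe set lay below the array median on all 18 arrays.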

How the results depend on the processing

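No member passed the threshold under any alternative except array weights, where Flt1 1451756_at (-0.55, adjusted p 0.00334) and Vwf (-0.65, adjusted p 0.0176) passed for treatment in grade 2 and Cdh5 (-0.68, adjusted p 0.0316) between untreated grades. That fit put the within-mouse correlation at -0.0044. Of the 11884 probe sets it called 640 for treatment in grade 3, 3441 in grade 2, 266 for the interaction and 1377 between untreated grades. The reported fit called 55, 10, 0 and 17. In each of these comparisons the share of members called with array weights was below the share of all probe sets called. The fit with array weights gave 0.0093 for Flt1 1451756_at in grade 3, -0.15 for Cldn5 in grade 2 and -0.069 for the interaction of Eng 1432176_a_at. For treatment in grade 3 the calls were 390 with no animal term, 0 on means of each mouse, 9 with sex as a covariate, 127 with no filter, 36 with 1 probe set per gene, 19 without mouse 8565 and 16 without mouse 8629. For treatment in grade 2 they were 73 with no animal term, 2 on means of each mouse, 20 with only the groups compared, 21 with no filter, 5 with 1 probe set per gene and 30 without 8688T3 and 8639T4. Between untreated grades they were 87 with no animal term, 0 with the animal as a fixed block, 0 on means of each mouse, 2 with only the groups compared, 51 with no filter, 4 with a filter on the mean, 9 without mouse 8565, 0 without 8700 and 4 without 8629. The interaction had 1 call with sex as a covariate, 7 without mouse 8565 and 1 without mouse 8629.

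Signs of members changed as follows; no such value passed. With sex as a covariate, treatment in grade 3 was 0.34 for Vwf and -0.064 for Emcn, and in grade 2 it was 0.027 for Pecam1, 0.45 for Cdh5, 0.51 for Tek, 0.18 for Tie1 and 0.13 for Eng 1417271_a_at; medians were 0.72 and 0.15. On means of each mouse, Cdh5 was 0.028 in grade 2, and the interaction was -0.072 for Vwf and -0.19 for Eng 1432176_a_at. With the animal as a fixed block, Emcn was 0.19 between untreated grades. Without mouse 8565, Eng 1417271_a_at was 0.16 in grade 2, the interaction was -0.095 for Vwf and -0.14 for Eng 1432176_a_at, and Vwf was 0.17 between untreated grades. Cldn5 in grade 2 was -0.14 with no animal term, -0.061 with only the groups compared, -0.23 without mouse 8700 and -0.38 without 8688T3 and 8639T4. Eng 1432176_a_at in grade 2 was -0.13 without mouse 8700 and -0.16 without 8688T3 and 8639T4, which also gave 0.018 for Flt1 1451756_at in grade 3. The cause of these changes was not tested.

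Leaving out each tumour in turn gave 19 (without 8565T4) to 228 (without 8584T3) calls for treatment in grade 3, 6 to 61 in grade 2, 0 to 16 for the interaction and 1 (without 8565T4) to 114 (without 8565T1) between untreated grades. Member medians ran from 0.26 to 0.49, from -0.37 to 0.049, from 0.29 to 0.74 and from -0.62 to -0.24 in the same order. In grade 3, Flt1 1451756_at ran from -0.074 to 0.026. In grade 2, Cdh5 ran from -0.31 to 0.11, Eng 1417271_a_at from -0.24 to 0.11, Eng 1432176_a_at from -0.15 to 0.37, Cldn5 from -0.40 to 0.44, Tek from -0.63 to 0.041 and Tie1 from -0.38 to 0.056. The interaction ran from -0.032 to 0.33 for Eng 1432176_a_at and from -0.033 to 0.22 for Flt1 1419300_at, and Vwf between untreated grades from -0.44 to 0.040. No paired analysis was possible because the replicate numbers follow the order of the samples and pair no tumours. The grades were compared within mice 8565 and 8688 instead, with the animal as a fixed block, which gave member medians of -0.42 in untreated and 0.057 in treated tumours. The untreated median sets 8565T1 against the mean of 8565T3 and 8565T4, and 8565T1 was close to 8565T3 in the mean over the 10 genes. The fixed block leaves no treatment comparison, because every mouse was either treated or untreated.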
